A study of Homo sapiens with 3 samples.

Results

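Nuclear genes for the mitochondrial respiratory chain and ATP synthase were examined in ribosome profiles of HEK293T cells, a human embryonic kidney line. Ribosome profiling sequences the mRNA fragments that ribosomes shield from nuclease, and the deposited lists give the places where such fragments piled up (peaks), without their height. Cells had been transfected for 24 h with pCDNA3.1 alone (vector), with normal DDX3X bearing a FLAG tag (wild-type DDX3X) or with the tagged G325E substitution of it (DDX3X G325E), 1 library for each construct, so no difference below could be set against the spread between cultures and no test was run. DDX3X is an RNA helicase that acts in translation initiation, and the constructs were expressed on top of the cells' own DDX3X. Per the labels cells received harringtonine at 2 µg/ml for 90 s and then cycloheximide at 100 µg/ml, whereas the study's methods name cycloheximide alone. Genes were taken by symbol, those starting with NDUF, SDHA to SDHD, UQCR, COX4 to COX8 or ATP5, and 47 of the 3580 genes with a peak met this rule. Of these, 36 had a peak in the vector list, 43 in the wild-type list and 28 in the G325E list, against 2022, 3006 and 2310 genes of all kinds. The 47 comprised 44 subunit genes, the assembly factor SDHAF1, the readthrough gene NDUFC2-KCTD14 and the pseudogene UQCRBP1.

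The respiratory chain passes electrons from NADH (complex I) and succinate (complex II) through complex III to oxygen at complex IV, and pumps protons across the inner mitochondrial membrane. ATP synthase (complex V) lets the protons back to make ATP. Except in complex II, a few core subunits are encoded by mitochondrial DNA, and the rest, counted here, are made by cytosolic ribosomes and imported.

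The DDX3X gene itself carried 0, 32 and 9 peaks in the vector, wild-type and G325E lists, which held 11219, 19920 and 15680 peaks in all. The labels name the cell type as neuronal. Of 12 neuron markers TUBB3, NEFL and NEFM had peaks on their own mRNA in each list and the other 9 had none. Of 5 epithelial markers KRT18 had peaks in the wild-type list, and the 3 liver and 4 blood markers had 0 peaks.

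The rule gave the 47 genes 145, 191 and 107 peaks in these lists. Many lay on something other than the mRNA named. A peak was called an own-mRNA peak when its centre fell in an exon of the gene's canonical GENCODE transcript and on its strand. By that measure 87, 111 and 57 peaks remained, 60.0%, 58.1% and 53.3% of those assigned, compared with 55.0%, 53.8% and 49.0% over all peaks. Of the 188 others, 72 were in exons of a neighbouring gene on that gene's strand. The neighbours included TECR next to NDUFB7 (8, 6 and 1 peaks in vector, wild-type and G325E), ASCC2 next to UQCR10 (2, 8 and 0), RPS2 next to NDUFB10 (4, 5 and 0) and RPS28 next to NDUFA7 (3, 3 and 4). Both numbers are given below, assigned peaks first, and lists always in the order vector, wild-type, G325E.

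**Figure D1:**
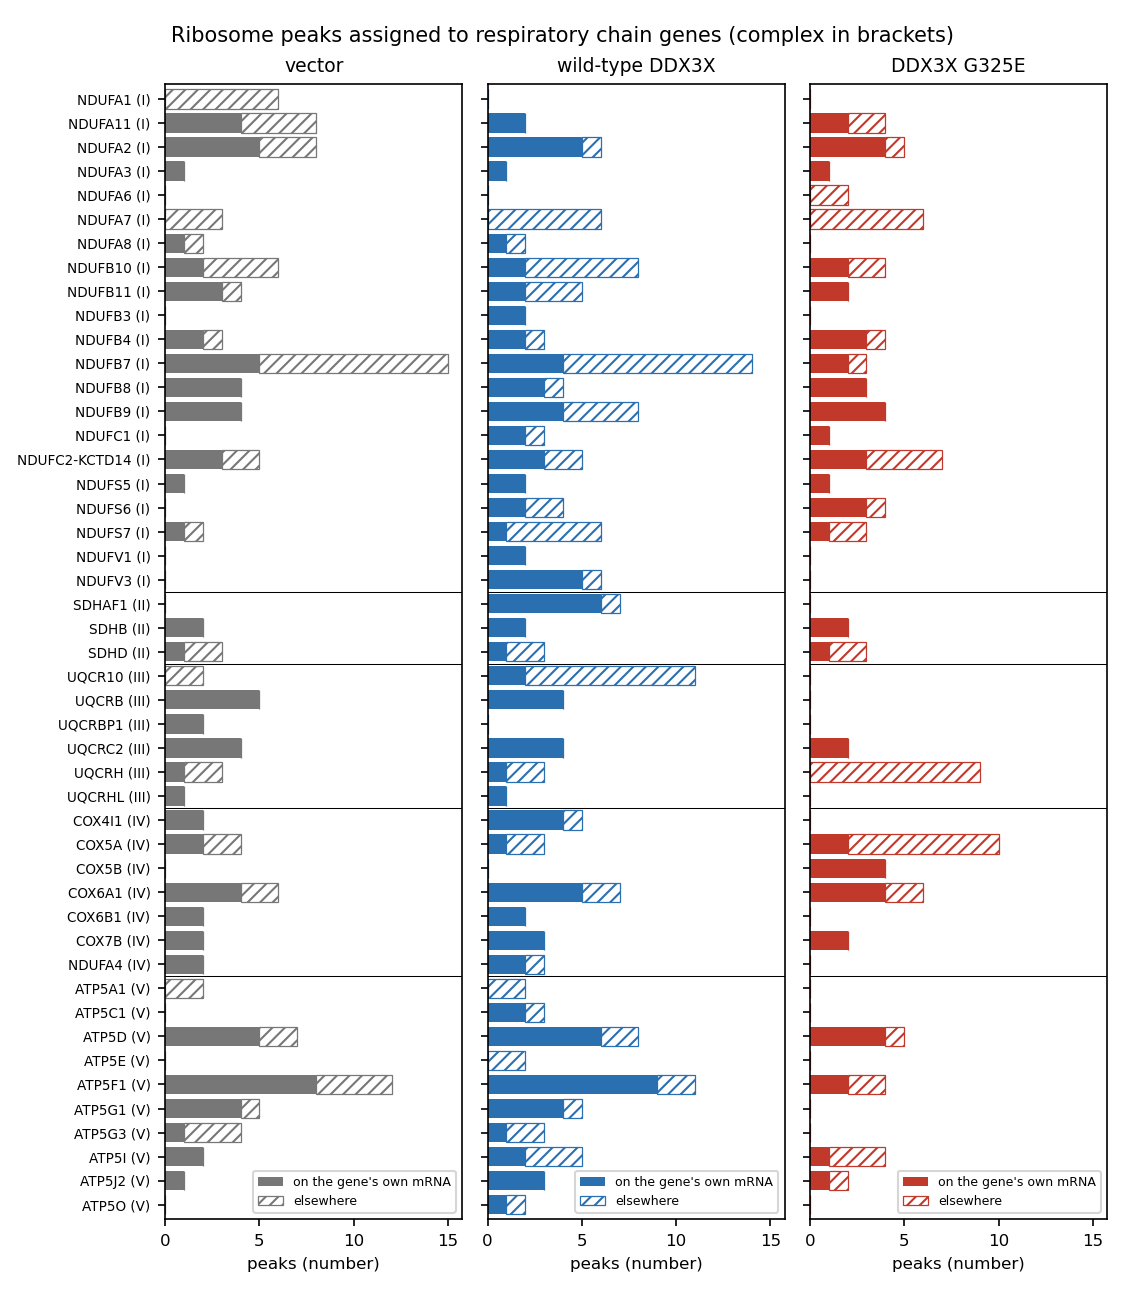
Number of peaks (horizontal axis) for each of the 47 genes (vertical axis, complex in brackets) in the 3 lists, 1 library each. Filled bars are own-mRNA peaks and hatched bars are assigned peaks that lie elsewhere. Complex III has 2 filled peaks in G325E against 12 in wild-type and 13 in vector, where 2 are of the pseudogene UQCRBP1. All 6 NDUFA1 peaks, seen in vector alone, are hatched.

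Relative to the length of each list, respiratory chain genes took a smaller share in G325E. Assigned peaks made up 1.29% of the vector list (95% Wilson interval 1.10 to 1.52), 0.959% of the wild-type list (0.833 to 1.10) and 0.682% of G325E (0.565 to 0.824). Among own-mRNA peaks the shares were 1.41% (1.15 to 1.74), 1.03% (0.86 to 1.24) and 0.741% (0.573 to 0.959). The vector and G325E intervals did not overlap on either count. Those of wild-type and G325E did not overlap for assigned peaks but did for own-mRNA peaks. These intervals cover counting error only, and treat peaks of 1 gene as independent, which they are not. Peaks per mRNA cannot be told apart from the amount of mRNA, because RNA levels were not analysed here. From RNA sequencing of HEK293T cells in a separate transfection, the study reports no significant effect of wild-type or mutant DDX3X on mRNA levels.

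Numbers differed by complex. Complex I held 36, 45 and 32 own-mRNA peaks, complex II 3, 9 and 3, and complex III 13, 12 and 2. Complex IV held 14, 17 and 12, and complex V 21, 28 and 8. The assembly factor SDHAF1 had 6 of the 9 wild-type peaks of complex II. The subunit genes SDHB (2, 2 and 2) and SDHD (1, 1 and 1) had equal numbers in each list. The pseudogene UQCRBP1 had 2 of the 13 vector peaks of complex III, which are kept in its share below. As a share of all own-mRNA peaks, complex I was at 0.584%, 0.420% and 0.416%, and its wild-type and G325E intervals (0.314 to 0.561 and 0.295 to 0.587) overlapped almost fully. Complex III stood at 0.211%, 0.112% and 0.0260%, with a G325E interval (0.00713 to 0.0948) below that of vector (0.123 to 0.360). Complex V stood at 0.341%, 0.261% and 0.104%, again with a G325E interval (0.0527 to 0.205) below that of vector (0.223 to 0.520). The wild-type intervals of complex III (0.0640 to 0.195) and complex V (0.181 to 0.377) overlapped those of G325E. As above, all these intervals treat peaks of 1 gene as independent. UQCRB and UQCRC2 held 5 and 4 of the 13 vector peaks of complex III, and its interval was not recalculated without UQCRBP1.

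Complex I, the NADH dehydrogenase, is the largest complex, and 21 of the 47 genes belonged to it. NDUFB7, an accessory subunit of its membrane arm (GRCh37, chromosome 19, 14676890 to 14682878, minus strand), had the most assigned peaks of any member in vector and wild-type, 15, 14 and 3, but 5, 4 and 2 on its own mRNA. These covered 80.8%, 48.4% and 25.5% of its 137 codons. The peak over its start codon was listed in vector and wild-type and not in G325E. NDUFA2, an accessory subunit (chromosome 5, 140024870 to 140027215, minus strand), had 8, 6 and 5 assigned and 5, 5 and 4 own-mRNA peaks, and its start-codon peak was in all 3 lists.

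NDUFB10 had 6, 8 and 4 assigned peaks but an even 2, 2 and 2 on its own mRNA. NDUFC2-KCTD14 had 5, 5 and 7 assigned and 3, 3 and 3 own-mRNA peaks. Its first exons are those of NDUFC2, a membrane-arm subunit, and reads from the pair cannot be told apart. NDUFA11, a membrane-arm accessory subunit, had 8, 2 and 4 assigned and 4, 2 and 2 own-mRNA peaks, and NDUFB11 had 4, 5 and 2 and 3, 2 and 2. These mRNAs thus had own-mRNA peaks in every list.

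Other complex I genes appeared in some lists only. NDUFV3, an accessory subunit beside the NADH site (chromosome 21, 44313419 to 44333409, plus strand), had 0, 6 and 0 assigned and 0, 5 and 0 own-mRNA peaks. These lay near both ends of its 473 codons, centred on codons 20 and 46 and on codons 426, 439 and 469. They covered 13.2% of the coding sequence, and the long stretch between was without a peak. NDUFV1, the flavin-binding subunit that takes electrons from NADH, had 0, 2 and 0, and NDUFB3, an accessory subunit, had 0, 2 and 0, all own-mRNA. NDUFS6, an accessory subunit (chromosome 5, 1801521 to 1816162, plus strand), had 0, 4 and 4 assigned and 0, 2 and 3 own-mRNA peaks. Its wild-type peaks were centred on codons 109 and 122 and its G325E peaks between codons 1 and 37, so the 2 lists had no site on it in common. NDUFA1 (6, 0 and 0) and NDUFA6 (0, 0 and 2) had 0 own-mRNA peaks. All 6 peaks of NDUFA1 were in exons of RNF113A. The other 9 complex I genes had 1 to 8 assigned peaks in each list where they had any, and 0 to 4 on their own mRNA.

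Complex II, succinate dehydrogenase, is made of nuclear-encoded subunits only. SDHB, its iron-sulfur subunit, had 2, 2 and 2 peaks, all own-mRNA and centred on codons 33 and 52 in each list. SDHD, a membrane anchor, had 3, 3 and 3 assigned peaks and 1, 1 and 1 on its own mRNA, over the start codon. SDHAF1, a chaperone for the iron-sulfur clusters of SDHB (chromosome 19, 36486090 to 36487214, plus strand, 1 exon), had 0, 7 and 0 assigned and 0, 6 and 0 own-mRNA peaks, which covered 73.6% of its 115 codons. It had the highest coding GC content of the members, 74.8%. Windows of 30 bases around 3 of these peak centres show the base composition, with the codon at the centre in capitals (GRCh37, plus strand).
SDHAF1 codon 4, 36486174 to 36486203: gtcatgagccggCACagccggctgcagagg
SDHAF1 codon 24, 36486234 to 36486263: cgcgccgggcgtGGGaagccgggcgccgag
SDHAF1 codon 105, 36486477 to 36486506: ccccacgacagcACGggggcaccggagacc

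Complex III hands electrons to cytochrome c. UQCRB, a small subunit of it, had 5, 4 and 0 peaks, all own-mRNA, between codons 45 and 103 in both lists that held it. Its coding GC content, 41.4%, was the lowest of the members with a peak on their coding sequence. The 2 vector peaks of UQCRBP1, a pseudogene of UQCRB, cannot be told apart from reads of the parent mRNA, which it resembles closely. UQCRC2, a core protein (chromosome 16, 21964682 to 21994981, plus strand), had 4, 4 and 2 peaks, all own-mRNA. They lay between codons 252 and 307 in vector and wild-type and at codons 30 and 88 in G325E. UQCR10, a small subunit, had 2, 11 and 0 assigned but 0, 2 and 0 own-mRNA peaks. UQCRH, the hinge protein, had 3, 3 and 9 assigned but 1, 1 and 0 own-mRNA peaks, and UQCRHL, an intronless copy that shares its sequence, had 1, 1 and 0.

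Complex IV, cytochrome c oxidase, reduces oxygen. COX4I1, which helps regulate the enzyme (chromosome 16, 85833301 to 85840674, plus strand), had 2, 5 and 0 assigned and 2, 4 and 0 own-mRNA peaks, which covered 46.4% and 50.1% of its codons in vector and wild-type. COX6A1 had 6, 7 and 6 assigned and 4, 5 and 4 own-mRNA peaks, and COX7B 2, 3 and 2, all own-mRNA. COX5A had 4, 3 and 10 assigned but 2, 1 and 2 own-mRNA peaks, and the 8 others in G325E were on the gene's strand outside its exons. COX5B (chromosome 2, 98262525 to 98264846, plus strand) stood alone among the members in having own-mRNA peaks only in G325E, 0, 0 and 4, centred on codons 68, 97, 111 and 127 of 129 and covering 38.0% of the coding sequence. Of these, 3 are shown as above.
COX5B codon 68, 98263819 to 98263848: gtactggccccaAAGggagcttcaggcacc
COX5B codon 97, 98264459 to 98264488: gtgaagaggacAATaccagcgtcgtctggt
COX5B codon 111, 98264500 to 98264529: aaaggcgaggccCAGcgatgcccccgctgt

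Complex V is the ATP synthase, a rotor in the membrane joined to a catalytic head. ATP5F1, subunit b of the stalk that holds the head still (ATP5PB in GENCODE, chromosome 1, 111992086 to 112005395, plus strand), had 12, 11 and 4 assigned and 8, 9 and 2 own-mRNA peaks. Vector and wild-type peaks ran over codons 121 to 256, and the 8 vector sites were all listed in wild-type. Of them, G325E held those around codons 210 and 226. The first pair of windows below was listed in vector and wild-type alone, and the second pair in all 3 lists, with the codon at the peak centre in capitals.
ATP5F1 codon 184, 112002103 to 112002132: gttacttaccggGAAcgactgtatagagta
ATP5F1 codon 195, 112002136 to 112002165: aaggaagtaaagAATcgcctggactatcat
ATP5F1 codon 210, 112002181 to 112002210: atgatgcgtcgaAAGgaacaagaacacatg
ATP5F1 codon 226, 112002229 to 112002258: cacgtggtgcaaAGCatctccacacagcag
GC content in these windows was 43.3% and 40.0% for the first pair and 43.3% and 56.7% for the second, so the pairs overlapped.

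ATP5D, the delta subunit of the rotor (ATP5F1D in GENCODE, chromosome 19, 1241750 to 1244824, plus strand), had 7, 8 and 5 assigned and 5, 6 and 4 own-mRNA peaks. The end of its coding sequence, codons 125 to 168, was under peaks in all 3 lists, and its 3′-UTR held 3, 2 and 1 peaks. G325E alone held a peak of 165 bases that reached from before the start codon to codon 38, and wild-type alone held peaks at codons 104 and 119. ATP5G1 and ATP5G3 encode the same mature ring subunit c with different targeting peptides. ATP5G1 had 5, 5 and 0 assigned and 4, 4 and 0 own-mRNA peaks, and ATP5G3 had 4, 3 and 0 and 1, 1 and 0. ATP5I, subunit e, had 2, 5 and 4 assigned and 2, 2 and 1 own-mRNA peaks. The gamma subunit gene ATP5C1 (0, 3 and 0, with 0, 2 and 0 own-mRNA), the stalk subunit gene ATP5O (0, 2 and 0, with 0, 1 and 0) and the epsilon subunit gene ATP5E (0, 2 and 0, with 0 in each) had peaks in wild-type alone. Both ATP5E peaks were in exons of PRELID3B.

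**Figure D2:**
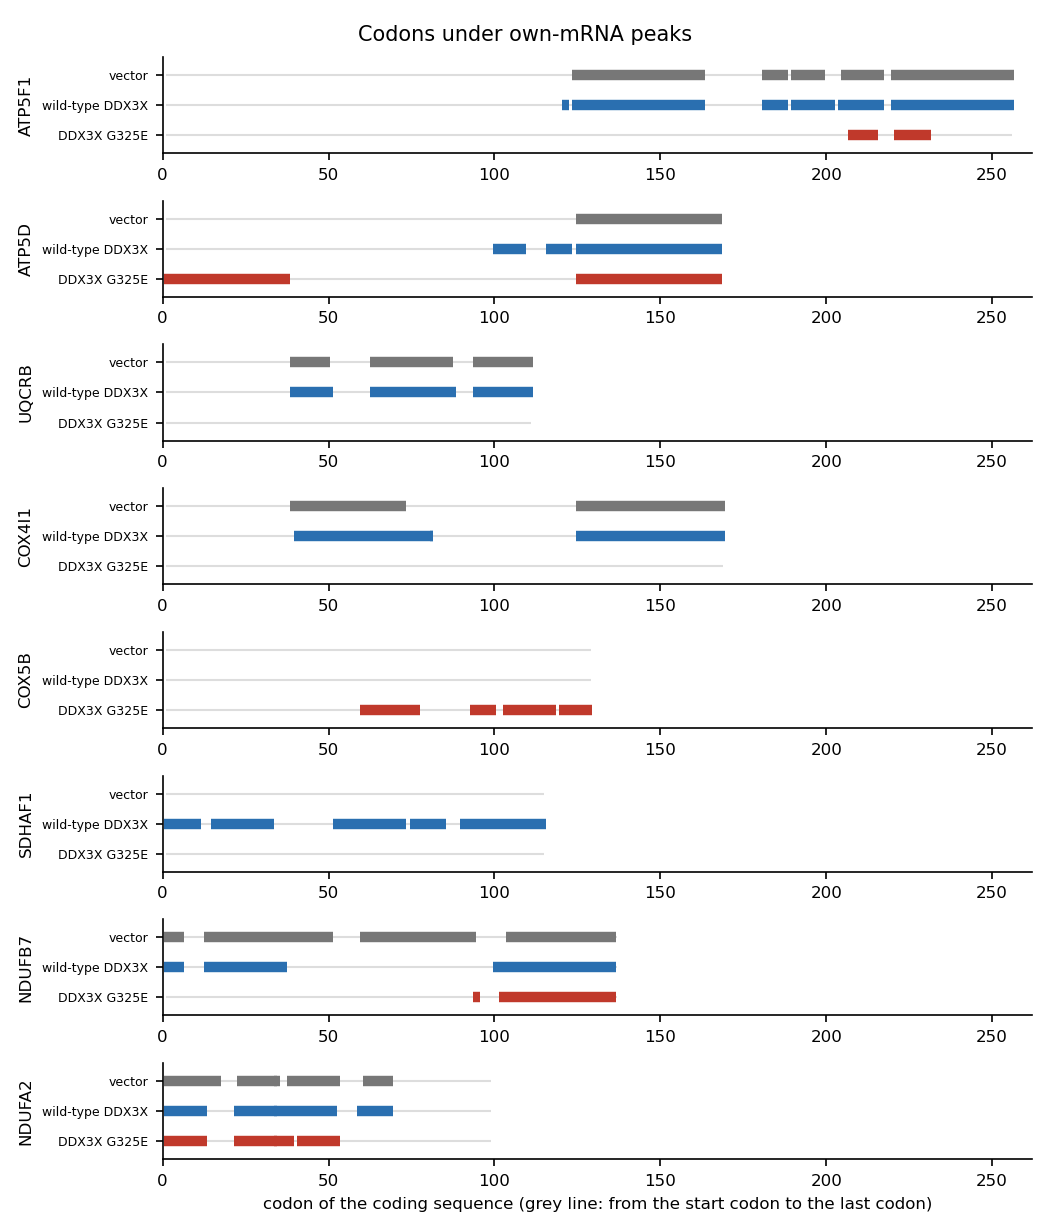
Codons under own-mRNA peaks (coloured bars) along the coding sequence (grey line, horizontal axis in codons) of 8 genes in the vector (grey), wild-type (blue) and G325E (red) lists. ATP5F1 keeps 2 of its sites in G325E, UQCRB and COX4I1 keep 0, COX5B appears in G325E alone and SDHAF1 in wild-type alone, whereas NDUFA2 has peaks in all 3 lists from the start codon to codon 52, and beyond codon 58 in vector and wild-type alone.

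Set against all genes, a like share of members was absent from G325E. Of 40 members with an own-mRNA peak in wild-type, 24 (60.0%) also had one in G325E, and of 2073 other genes with a coding sequence 1284 (61.9%) did. At least 2 own-mRNA peaks in wild-type and 0 in G325E were found for 11 of 31 members (35.5%), and for 37.2% of all genes. Starting from vector, this held for 6 of 23 members (26.1%) and for 24.1% of all genes. The 11 were ATP5C1, ATP5G1, COX4I1, COX6B1, NDUFA4, NDUFB3, NDUFV1, NDUFV3, SDHAF1, UQCR10 and UQCRB. Members differed more in what was gained. COX5B was the 1 member of 42 with own-mRNA peaks in G325E alone, whereas 452 of the 2648 other genes with an own-mRNA peak had them in G325E alone. A difference of these shares was not tested, and they were not matched for the shorter 5′-UTRs and coding sequences of members, given below.

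The lists were next compared gene by gene after scaling to the same total and adding 0.5 peaks, over genes with at least 4 assigned peaks in the pair of lists, and a ratio of 2-fold or more was counted. G325E over wild-type gave 4 of 31 members higher and 8 lower (12.9% and 25.8%), where 25.2% and 30.7% of all genes were past this limit. G325E over vector gave 3 of 27 higher and 10 lower (11.1% and 37.0%), beside 33.9% and 21.6% of all genes. Wild-type over vector gave 4 of 35 higher and 6 lower (11.4% and 17.1%), beside 29.3% and 15.0% of all genes. The share past the limit upward was lower in members than over all genes in all 3 comparisons, which share their lists pairwise, and this difference was not tested. The share lower exceeded the background most against vector in G325E. With scaling by the median ratio the last comparison gave 4 higher and 2 lower (11.4% and 5.71%), beside 31.5% and 8.45% of all genes, so that its share lower was then below the background.

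The median log2 ratio of members was −0.20 for G325E over wild-type, −0.45 for G325E over vector and −0.67 for wild-type over vector, beside 0.08, −0.06 and −0.20 over all genes. Relative to the median gene, the last was −0.46. Taking genes with 0 peaks in 1 list at 3 peaks there left these medians unchanged. Such genes keep their sign by this rule and mostly stay on the same side of the median, so the medians could hardly move. A gene with the same number of peaks in wild-type as in vector falls below 0 on this scale, −0.74 for the 4 and 4 peaks of UQCRC2, because the wild-type list is longer. For genes with peaks in both lists, ATP5F1 was at −1.03 for G325E over wild-type and −1.92 over vector, and NDUFB7 at −1.74 and −2.59. Of the NDUFB7 peaks 8, 6 and 1 were in TECR exons, and its own-mRNA peaks gave −0.56 and −1.55. NDUFA11 was at 1.14 over wild-type but −1.36 over vector. It had 2 own-mRNA peaks in both wild-type and G325E, and its own-mRNA peaks gave 0.28 and −1.26. COX5A (1.90 over wild-type) and UQCRH (1.75 over wild-type and 1.00 over vector) were higher through peaks off their mRNA. For G325E over vector, NDUFA2 (−1.07), NDUFB11 (−1.26) and UQCRC2 (−1.26) were also past 2-fold lower. Own-mRNA peaks gave −0.72, −0.89 and −1.26 for these genes, so UQCRC2 alone of them stayed past the limit. Wild-type over vector was past 2-fold lower for NDUFA11 (−2.49), NDUFA2 (−1.16), ATP5G3 and COX5A (both −1.09) and UQCRB (−1.04), and past it upward for UQCR10 (1.47), of whose peaks 2 in vector and 8 in wild-type were in ASCC2 exons and 0 and 2 on its own mRNA. With own-mRNA peaks alone, NDUFA11 was at −1.55, NDUFA2 at −0.755 and UQCRB at −1.04 in this comparison. ATP5G3 and COX5A had too few such peaks for a ratio.

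Own-mRNA peaks alone gave fewer genes past the limit. G325E over wild-type had 1 of 23 members higher and 6 lower (4.35% and 26.1%), beside 18.0% and 30.5% of all genes. The 1 higher was COX5B, and the 6 lower were ATP5F1, ATP5G1, COX4I1, NDUFV3, SDHAF1 and UQCRB. G325E over vector had 1 of 19 higher and 6 lower (5.26% and 31.6%), beside 25.8% and 23.3%, and wild-type over vector 2 of 24 higher and 5 lower (8.33% and 20.8%), beside 27.5% and 15.0%. Median ratios were 0.02, −0.72 and −0.67 for members and 0.02, −0.39 and −0.36 for all genes. A gene at 0 in 1 list is past the limit through the 0.5 peaks added, so with 3 peaks in its place the members past it were 0 higher and 1 lower for G325E over wild-type, beside 14.4% and 13.1% of all genes, and the 1 was ATP5F1. Counted so, G325E over vector had 0 higher and 5 lower, beside 6.92% and 19.8% of all genes, and wild-type over vector 0 and 5, beside 6.25% and 15.0%.

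Where ribosomes sat on these mRNAs was then compared. Vector held 8 of 85 own-mRNA member peaks in a 5′-UTR (9.41%, 95% Wilson interval 4.85 to 17.5), wild-type 11 of 111 (9.91%, 5.62 to 16.9) and G325E 3 of 57 (5.26%, 1.81 to 14.4). Over all genes these shares were 13.1% (12.2 to 13.9), 13.4% (12.8 to 14.1) and 27.7% (26.7 to 28.7). The coding share of members was 87.1%, 87.4% and 93.0%, and over all genes 85.0%, 84.7% and 70.8%. The higher 5′-UTR share of the G325E list was therefore not seen on the respiratory chain mRNAs, where the interval lay below the value of all genes. The 3 peaks of G325E in a 5′-UTR were on COX5A, NDUFB10 and NDUFC1.

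**Figure D3:**
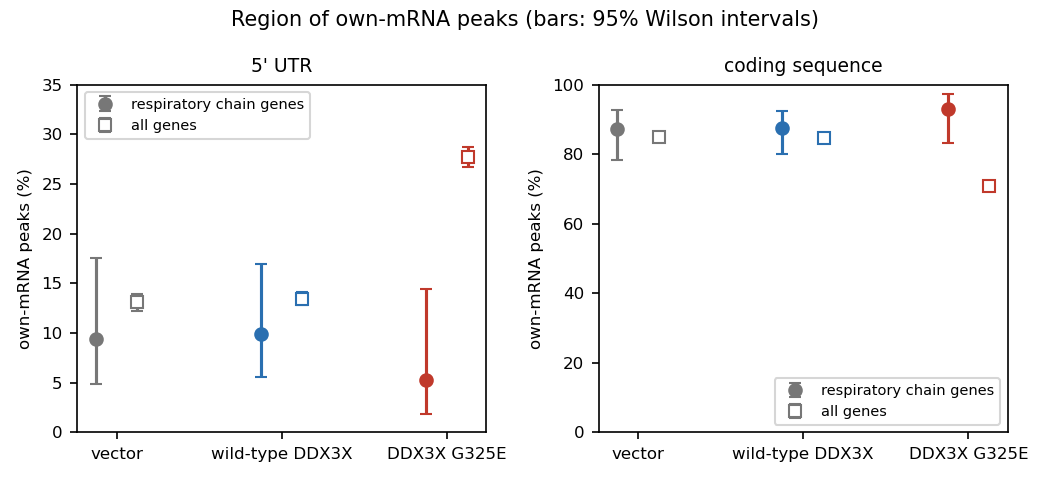
Share of own-mRNA peaks (vertical axis, percent) in the 5′-UTR (left) and coding sequence (right) for respiratory chain genes (filled circles) and all genes (open squares) in each list, with 95% Wilson intervals. In G325E the 5′-UTR share is 5.26% for respiratory chain genes and 27.7% for all genes.

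The members had short annotated leaders. The 5′-UTR had a median of 55 bases in 41 members with an own-mRNA peak and 116 bases in 2599 other genes, and the coding sequence a median of 136 and 376 codons. Genes were therefore divided by 5′-UTR length, a comparison chosen after the shares had been seen. With a 5′-UTR of 75 bases or fewer, the 5′-UTR share in G325E was 1 of 44 peaks in members (2.27%, 0.402 to 11.8) and 5.15% in other genes (4.31 to 6.15). In vector and wild-type it was 5.56% and 5.63% in members and 3.82% and 3.21% in other genes. With 5′-UTRs longer than 75 and up to 178 bases, members had 1 of 12 peaks there in G325E (8.33%, 1.49 to 35.4) and other genes 22.0% (20.3 to 23.8). Thus the G325E intervals of members and other genes overlapped in both of these length classes. With 5′-UTRs longer than 178 bases other genes had 27.8% of peaks there in vector and wild-type and 48.3% in G325E. In that class 1 member had an own-mRNA peak in G325E, so the members could hardly be compared where the share of other genes was largest.

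**Figure D4:**
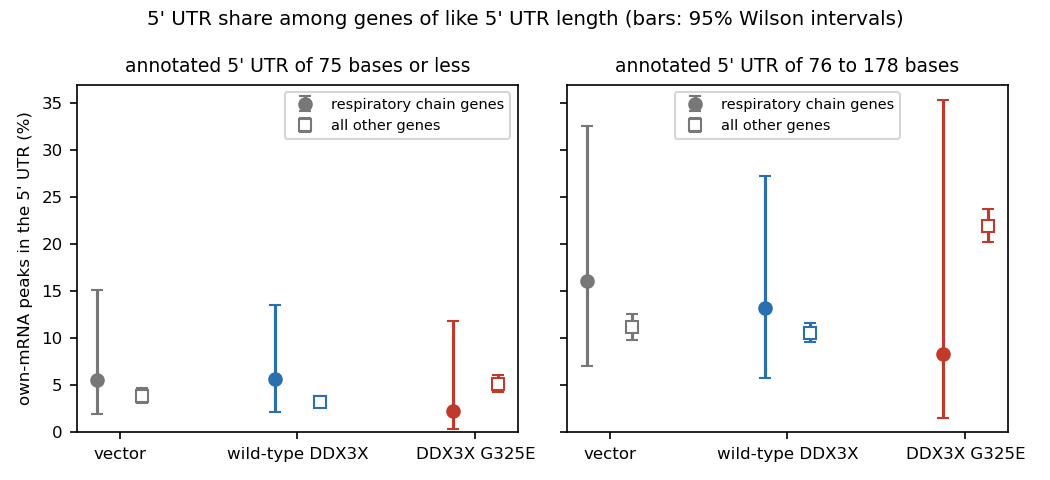
Share of own-mRNA peaks in the 5′-UTR (vertical axis, percent) for respiratory chain genes (filled circles) and all other genes (open squares) whose annotated 5′-UTR has 75 bases or fewer (left) or more than 75 and up to 178 bases (right), with 95% Wilson intervals. With short leaders other genes are at 5.15% in G325E, and with longer ones at 22.0%.

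By the annotation deposited with the peaks, the promoter-TSS and 5′-UTR classes together held 48 of 145 assigned member peaks of vector (33.1%), 49 of 191 of wild-type (25.7%) and 41 of 107 of G325E (38.3%, 29.7 to 47.8). All genes had 28.3%, 26.4% and 43.5%. These classes also take in coding peaks near a start site and peaks of divergent neighbours, and among own-mRNA peaks of members their share was 20.7%, 19.8% and 22.8%.

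Within coding sequences, the mean position of member peaks (from 0, the start codon, to 1, the stop codon) was 0.505 ± 0.294 (SD, 74 peaks) for vector, 0.508 ± 0.309 (97 peaks) for wild-type and 0.430 ± 0.310 (53 peaks) for G325E. Over all genes it was 0.468, 0.470 and 0.376. The first 50% of the coding sequence held 48.6% of vector member peaks (37.6 to 59.8), 49.5% of wild-type ones (39.7 to 59.3) and 60.4% of G325E ones (46.9 to 72.4), so the intervals overlapped. The first 10% held 9.46%, 13.4% and 13.2% for members, beside 15.1%, 14.7% and 24.5% for all genes.

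Members with a peak over the start codon numbered 10, 15 and 7, which is 32.3%, 37.5% and 28.0% of the members with a peak on a coding transcript, beside 37.9%, 37.1% and 50.6% of all such genes. The larger share of all genes in G325E was thus not seen in members, and the difference was not tested. NDUFA2, NDUFB10, NDUFC2-KCTD14 and SDHD had one in all 3 lists. Their start codons are shown in capitals with 12 bases before and 15 after (GRCh37; NDUFA2 and NDUFC2-KCTD14 are on the minus strand).
NDUFA2, chromosome 5, 140027151 to 140027180: atattaacaaggATGgcggcggccgcagca
NDUFB10, chromosome 16, 2009614 to 2009643: cccgccgccgccATGccggacagctgggac
NDUFC2-KCTD14, chromosome 11, 77790773 to 77790802: aacggcgtcaccATGatcgcacggcggaac
SDHD, chromosome 11, 111957620 to 111957649: ctcaggaacgagATGgcggttctctggagg
A purine 3 bases before the start codon was present in all 40 members examined and in 90.1% of 2589 other genes, and a G directly after it in 57.5% and 56.7%. Both letters occurred together in 57.5% of members and 51.0% of other genes, and in 2 of the 4 shown.

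Most G325E sites on these mRNAs were also in the other lists. Of own-mRNA member peaks in G325E, 45 of 57 (78.9%, 66.7 to 87.5) shared at least 1 base with a wild-type peak and 44 (77.2%, 64.8 to 86.2) with a vector peak, beside 59.7% and 45.3% over all genes. Of wild-type member peaks 66.7% (57.5 to 74.7) overlapped a vector peak, beside 47.4%. In the other direction 36.9% of wild-type (28.5 to 46.2) and 48.3% of vector member peaks (38.1 to 58.6) overlapped a G325E peak, beside 39.4% and 54.2%. Members therefore had few new sites in G325E, with about as large a share of old sites absent as in all genes. These shares were not matched for the length of 5′-UTRs or coding sequences either. The 12 own-mRNA peaks found in G325E alone were on COX5B (4), NDUFS6 (3), UQCRC2 (2), ATP5D, NDUFB7 and NDUFS7 (1 each), and 7 of them lay in the first 50% of the codons. Wild-type alone had 36 on 19 genes, led by SDHAF1 (6) and NDUFV3 (5), with 16 of the 31 coding ones in the first 50%. Vector alone had 9 on 6 genes. These peaks made up 21.1% of G325E, 32.4% of wild-type and 10.3% of vector member peaks, beside 37.1%, 40.6% and 9.99% over all genes.

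GC content moved with the lists. In the 31 bases around assigned member peaks its median was 61.3%, 58.1% and 67.7%, beside 64.5%, 64.5% and 74.2% over all peaks assigned to genes. Own-mRNA member peaks of wild-type that overlapped a G325E peak had a median of 64.5%, and the others 54.8%. All own-mRNA peaks showed 67.7% and 54.8%. The same was seen gene by gene. Among members with an own-mRNA peak in wild-type, the coding GC content had a median of 54.5% for the 24 also present in G325E and 50.5% for the 16 absent, beside 55.9% and 50.7% for other genes. Members under 49.5% coding GC were present in G325E in 5 of 12 cases (41.7%, 19.3 to 68.0), those from 49.5% to 58.2% in 11 of 18 (61.1%, 38.6 to 79.7) and those above in 8 of 10 (80.0%, 49.0 to 94.3). Other genes gave 49.6%, 62.2% and 74.0% in these classes. In vector the same members were present in 75.0%, 77.8% and 80.0%. SDHAF1 and NDUFV1 were the 2 absent from the highest class. Base composition and the DDX3X construct cannot be told apart in these lists.

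**Figure D5:**
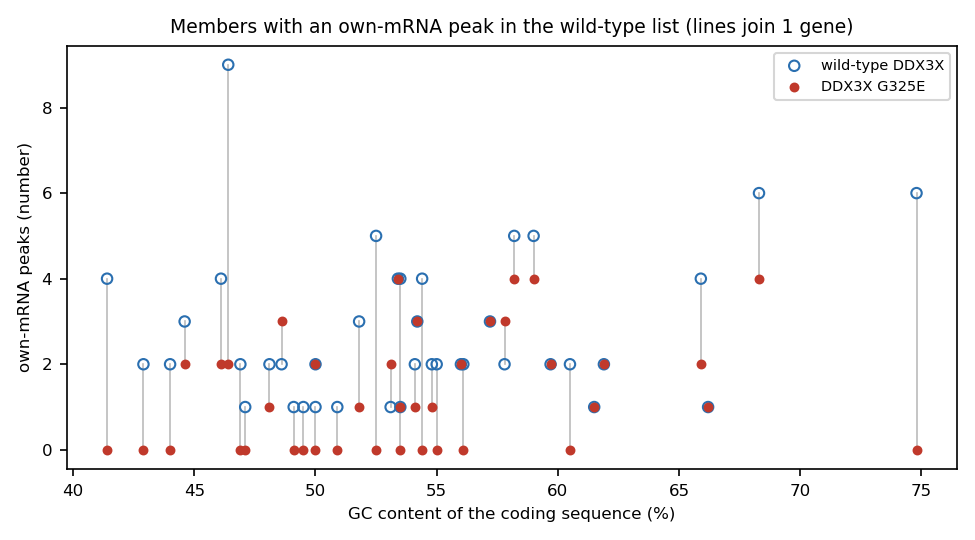
Own-mRNA peaks (vertical axis, number) of the 40 members with such a peak in wild-type (open blue circles) and their number in G325E (red points), by GC content of the coding sequence (horizontal axis, percent). Lines join 1 gene. Members at 0 in G325E include 7 of the 12 under 49.5% GC and 2 of the 10 above 58.2%, 1 of which is SDHAF1 at 74.8%.

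Other genes of the pathway (assembly factors, carriers and coenzyme Q synthesis, 59 in the list) had 54, 81 and 34 assigned and 43, 43 and 20 own-mRNA peaks, on 11 and 10 genes. Of 9 with enough assigned peaks 1 was higher and 3 lower by 2-fold for G325E over wild-type, beside 25.2% and 30.7% of all genes. For G325E over vector they were 1 and 3 of 9 (all genes, 33.9% and 21.6%). For wild-type over vector they were 1 and 3 of 10 (29.3% and 15.0%). On own-mRNA peaks G325E over wild-type had 0 of 6 higher and 2 lower (all genes, 18.0% and 30.5%). G325E over vector then had 1 and 3 of 7 (25.8% and 23.3%), and wild-type over vector 0 and 2 of 7 (27.5% and 15.0%). CYCS, the electron carrier cytochrome c, had 6, 6 and 0 peaks, and CYC1, the heme subunit of complex III, 8, 0 and 0, all own-mRNA. SCO2, which delivers copper to complex IV, had 11, 12 and 0 own-mRNA peaks, and COX11, another copper factor, 0, 3 and 5. SLC25A6, an ADP/ATP carrier, had 8, 13 and 9. COQ3, an enzyme of coenzyme Q synthesis, had 0, 13 and 0 assigned peaks but 0 on its mRNA. The mitochondrial chromosome held 96, 79 and 35 peaks, 0.856%, 0.397% and 0.223% of the lists.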

How the data were processed

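Ribosome-protected RNA from HEK293T cells was listed as peaks, 1 list for each of 3 libraries. The authors trimmed reads with cutadapt, aligned them with BWA 0.5.5 to NCBI Build 37 with RefSeq, junction and AceView sequences and removed duplicates. Peaks were called per library where Bambino coverage reached a cut-off and annotated with HOMER (version not given in the sources used here). The study describes these steps for CLIP-seq and states that ribosome profiling used the same peak detection. Review of peaks by eye is described for CLIP-seq and not stated separately for the ribosome peaks. The deposited columns used are positions and distances, with no height, so the depth behind a peak is unknown. The study states read totals, which were not used here: mapped reads without duplicates were most in wild-type and fewest in G325E, an order that the list lengths do not follow. Here peaks went to the gene of the RefSeq transcript named in the annotation where that maps to a gene name, otherwise to the gene name, and peak centres were placed on GENCODE 44 canonical transcripts lifted to GRCh37. Symbols are those of the deposited lists. Ratios were log2 of peak numbers scaled to the mean of both totals plus a pseudocount of 0.5. They understate the change of genes with few peaks in both lists. For a gene at 0 in 1 list the size of the ratio is set by the pseudocount and may overstate the change. Python 3.11.15, numpy 2.4.6, scipy 1.17.1, pandas 2.3.3 and matplotlib 3.10.9 were used. The ratio was tried on simulated data with changes larger than 2-fold, placed in genes with more peaks than most members had. That trial does not cover calls near 2-fold in genes with few peaks. No statistical test was run. Members, lists and alternatives were chosen with earlier results of these data known. Named genes were the 4 members of each complex with most assigned peaks, those past 2-fold, those with at least 2 peaks in 1 list and 0 in both others, and DDX3X.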

Additional observations from a re-analysis of the deposited data

How the results depend on the processing

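No paired analysis was possible because each construct had 1 library and no result comes from a test. Of 159 alternative values for 27 results, 132 stayed within the interval of the reported share, mean or median, or within 1.5 times the reported count. Own-mRNA peaks alone took members to 0.775% of the vector list, 0.557% of the wild-type list and 0.364% of the G325E list, and their promoter-TSS and 5′-UTR share to 20.7%, 19.8% and 22.8%; the gene name column alone took the last to 28.9%. Members past 2-fold higher in G325E over wild-type were 1 of 23 with own-mRNA peaks, by either scaling (all genes, 18.0%, and 19.5% scaled by own-mRNA totals). They were 2 of 15 among genes with at least 8 peaks (all genes, 23.0%). Those lower were 19 of 45 among genes with at least 1 peak (all genes, 1377 of 3527) and 3 of 15 with at least 8 (21.4%). For G325E over vector they were 1 of 19 higher with own-mRNA peaks, by either scaling (all genes, 25.8%, and 26.5% scaled by own-mRNA totals). They were 5 of 40 with at least 1 peak (all genes, 34.7%) and 1 of 12 with at least 8 (28.3%). In these 3 settings 6, 18 and 4 were lower (23.3%, or 21.7% scaled by own-mRNA totals, 28.1% and 16.5%). For wild-type over vector they were 2 of 24 higher with own-mRNA peaks, by either scaling (all genes, 27.5% by both). They were 10 of 45 with at least 1 peak (all genes, 37.6%) and 1 of 17 with at least 8 (18.2%). Those lower were 2 of 35 with the median ratio (8.45%), 3 of 35 with a pseudocount of 1 (11.4%) and 3 of 17 with at least 8 peaks (14.7%). Scaling own-mRNA peaks by their own total, and gene names by the RefSeq table, were added after the data were seen. The lists hold few peaks per gene and no heights, so 1 peak more or fewer can move a member past 2-fold, and a gene at 0 may have had reads below the authors' cut-off.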

Other observations

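Some peaks on respiratory chain mRNAs went to other genes by the rule, and are not counted above. By the RefSeq accession in the annotation, NDUFS8, a core iron-sulfur subunit of complex I, had 5, 6 and 0 peaks (vector, wild-type, G325E), which the rule gave to MIR4691 (2, 2 and 0) and TCIRG1 (3, 4 and 0). NDUFA13, an accessory subunit, had 4, 3 and 0, given to YJEFN3. The assembly factor NDUFAF2 had 0, 5 and 0, given to C5orf43, and NDUFC1 had 0, 3 and 4 more, given to NAA15. These genes were singled out after their values were seen. NDUFS8, NDUFA13 and NDUFAF2 had 0 such peaks in G325E, and NDUFC1 had 4. The ATP synthase inhibitor ATPIF1 had 3, 2 and 0 own-mRNA peaks. Such absences were common over all genes. Of those with at least 2 own-mRNA peaks in wild-type, 37.2% had 0 in G325E, and starting from vector 24.1% did. The NDUF genes here were counted by annotation and not by own-mRNA peaks, so they cannot be set directly against these shares.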
